A study of Mus musculus with 8 samples.

Results

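The genes described here are 33 B lineage genes: the chains of the B cell receptor, the kinases and adaptors behind it, its co-receptors, other surface receptors of B cells, and the transcription and assembly factors of the lineage. They were chosen by symbol, with earlier results of these data known, as a measure of B lineage RNA in bead-enriched CD8+ T cells. All 33 were found among the 55291 genes of the deposited count table, and all 33 passed the low-count filter and were tested, among 16630 genes in all. The series compared CD8+ T cells from spleens of naïve mice, 4 libraries labelled ATF4 overexpression (genotype label ATF4 Tg/Tg) and 4 labelled WT. The design text names the mice as ATF4Tg/Tg or E8IcreATF4Tg/Tg, where E8I-cre is a Cre driven by a Cd8a enhancer and active in CD8 T cells. The sample labels call the other group WT, while the design text names no WT mice, and no source used here says whether the libraries labelled WT carry the transgene without Cre. The genotype label of the overexpression group likewise names no Cre. No label gives an age, a sex or a drug treatment, or says that the 4 libraries of a group came from separate mice. The p-values therefore measure the spread between these libraries, which may be technical. The cells were enriched with a commercial CD8+ T cell isolation kit on magnetic particles, with no fluorescence sort stated, and a remainder of other spleen cells can be carried through such an enrichment.

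The B cell receptor is a membrane immunoglobulin, made of heavy chains and light chains, that is held at the surface by the signalling pair CD79A and CD79B. When antigen crosslinks it, Src family kinases phosphorylate paired tyrosines in the tails of that pair, SYK docks there, and BTK and the adaptor BLNK pass the signal on. EBF1 and PAX5 set up and hold this program, and the same transcription factors keep it on in mature B cells of the spleen. Several of the 33 genes are also used outside the lineage: Syk, Lyn, Btk and Fcgr2b in myeloid cells, Bcl11a in progenitors and dendritic cells, and Cxcr5 in some T cells.

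Library totals ran from 93478686 to 125974143 estimated counts, and levels are given as CPM (counts per 1000000 counts, on library sizes scaled by TMM). Libraries fell into 2 sets, replicates 1 and 2 (set 1) and replicates 3 and 4 (set 2) of each group, whose columns are named in different ways. In 4 libraries, WT replicates 1 and 4 and ATF4 overexpression replicates 1 and 2, counts below 10 made up under 12% of detected genes. Cd8a averaged 1395 ± 106 CPM over WT libraries and 1085 ± 73.8 CPM over those of ATF4 overexpression (SD, n = 4 each), and the summed CD8 T cell list of 14 genes was between 8788 and 9280 CPM and between 7115 and 7570 CPM respectively. Of these 14 genes 8 were lower in ATF4 overexpression and 0 higher, against 4.89% and 9.16% of all tested genes. Atf4, the overexpressed gene, was at 285, 308, 165 and 165 CPM in WT and at 445, 427, 228 and 212 CPM in ATF4 overexpression. It was higher in each same-numbered pair, and the groups overlapped because set 1 was the higher set in both. Its log2 fold change of 0.51 ± 0.31 did not pass over all libraries (adjusted p = 0.37) and passed with the replicate number as a block (0.48, adjusted p = 2.2e-04).

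Most of the 33 genes were higher in ATF4 overexpression. By edgeR's quasi-likelihood test with Benjamini-Hochberg adjustment over all genes, 19 of 33 rose (57.6%), where 9.16% of all tested genes did. Of the 33, 1 fell (Cxcr5), where 4.89% of all tested genes did, and 13 did not pass. The median log2 fold change of the 33 genes was 2.35, against -0.02 over all tested genes. In 26 genes all ATF4 overexpression libraries lay above all WT libraries (13.3% of all tested genes), in 1 gene they all lay below (8.66%), and in 6 the groups overlapped. With the replicate block 27 rose and 2 fell, against 13.7% and 13.5% of all genes. Within set 1, 26 rose and 1 fell, against 6.75% and 3.07% of all genes, and within set 2, 26 rose and 2 fell, against 14.3% and 1365 of 17073 genes. With DESeq2, 25 rose and 1 fell, against 11.7% and 5.47%. Without the 4 libraries that are short of low counts, 7 rose and 1 fell, against 7.29% and 1.94% of all genes. That fit sets WT replicates 2 and 3, 1 from each set, against ATF4 overexpression replicates 3 and 4, both of set 2, so it changes the balance of the sets as well. In bulk RNA more cells of a type and more RNA per cell cannot be told apart.

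**Figure D1:**
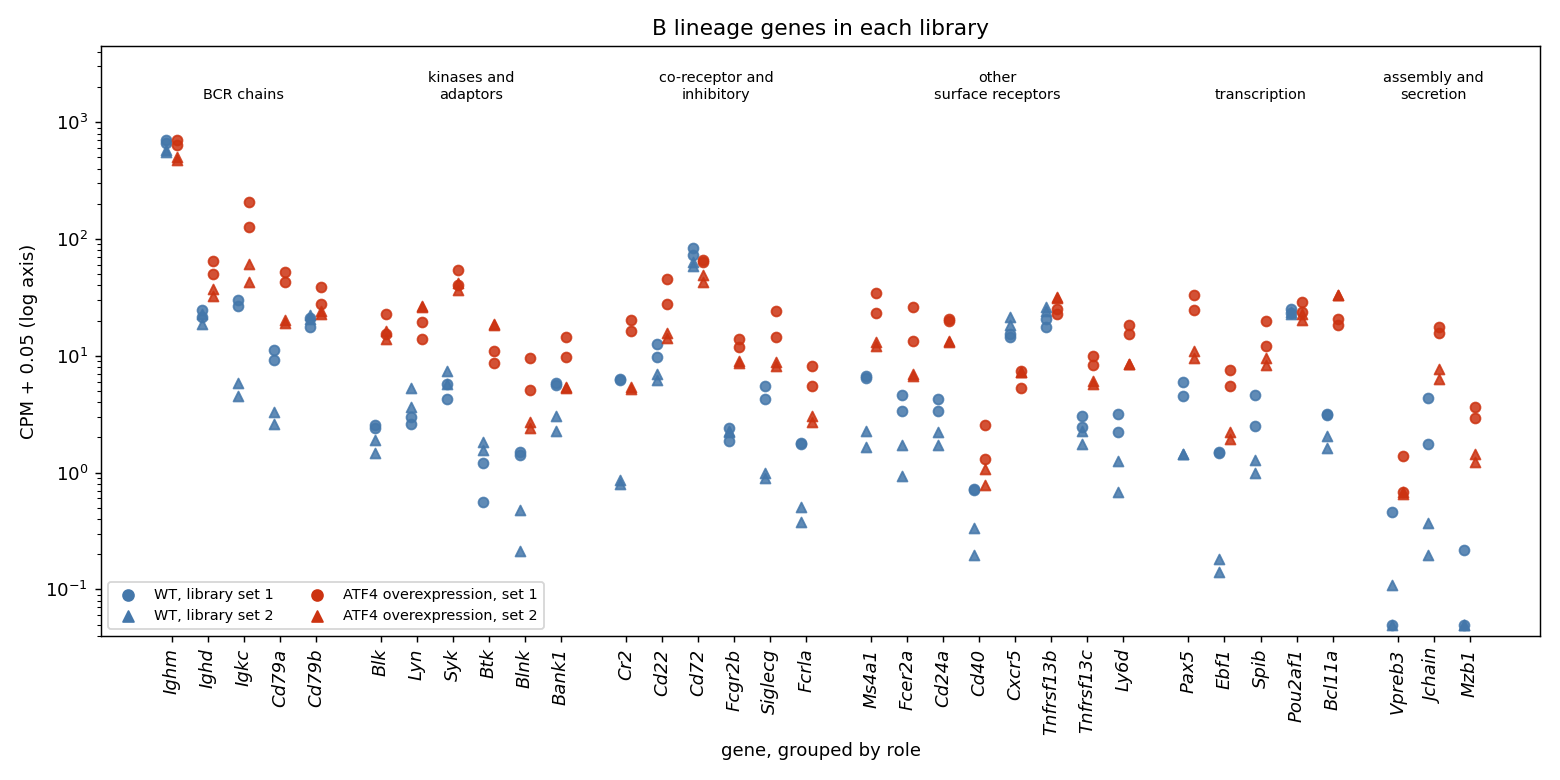
Level of each of the 33 genes in each of the 8 libraries, as CPM plus 0.05 on a log axis, grouped by role; circles are library set 1, triangles are set 2, WT is blue and ATF4 overexpression is red. Cd79a separates the groups (2.55 to 11.2 CPM against 18.9 to 52.5 CPM), Ighm and Pou2af1 overlap, and Cxcr5 lies lower in every ATF4 overexpression library.

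The receptor chains divided into those that rose and those that did not. Cd79a, the signalling chain found with CD79B at the base of the receptor (chromosome 7, 24897381 to 24902197, plus strand, GRCm38), was at 9.11, 11.2, 2.55 and 3.23 CPM in WT and at 52.5, 42.9, 18.9 and 20.1 CPM in ATF4 overexpression (replicates 1 to 4). The lowest ATF4 overexpression library lay above the highest WT library, and in both groups the libraries of set 1 were the higher ones. Its log2 fold change was 2.37 ± 0.56 (SE, adjusted p = 0.025). Within set 1 it was 2.27 and within set 2 it was 2.76.

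Cd79b, its partner chain (chromosome 11, 106311341 to 106314762, minus strand), was at 20.9, 17.7, 20.7 and 22.2 CPM in WT. In ATF4 overexpression it was at 38.9, 27.9, 24.0 and 22.6 CPM. The groups did not overlap, but replicate 4 of ATF4 overexpression stood only just above the highest WT library. The log2 fold change of 0.48 ± 0.17 did not pass (adjusted p = 0.091), nor did it with the replicate block (0.45, adjusted p = 0.052) or within set 2 (0.12, adjusted p = 0.40), but it did within set 1 (0.82, adjusted p = 0.021) and with DESeq2 (adjusted p = 0.042). The stretches that code for the paired-tyrosine signalling motif (ITAM) of both chains are shown because these chains work as a pair in the B cell receptor while their transcripts moved by different amounts here. Each runs 5′ to 3′ over 54 bases of the GENCODE M21 transcript, and capitals mark the codons of the paired tyrosines:
Cd79a: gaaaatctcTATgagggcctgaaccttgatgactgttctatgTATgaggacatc
Cd79b: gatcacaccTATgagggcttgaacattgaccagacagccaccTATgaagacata

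Ighm, the heavy chain constant region of IgM (chromosome 12, 113418558 to 113422730, minus strand), was at 660, 698, 560 and 580 CPM in WT and at 644, 705, 474 and 507 CPM in ATF4 overexpression. The groups overlapped, and set 1 was higher than set 2 in both. Its log2 fold change was -0.10 ± 0.13 (adjusted p = 0.72). Within set 1 the value was 0.02 (adjusted p = 0.93), and within set 2, where both ATF4 overexpression libraries lay below both WT libraries, -0.21 (adjusted p = 0.054). Ighm took 69.2% to 72.8% of the summed level of the 33 genes in WT libraries and 42.8% to 49.9% in ATF4 overexpression. All 33 genes summed to 884 ± 112 CPM in WT libraries (769 to 1009) and to 1240 ± 296 CPM in those of ATF4 overexpression (951 to 1503), and these ranges overlapped. Leaving Ighm out, the other 32 genes summed to 259 ± 47.0 CPM over WT libraries and to 657 ± 192 CPM over those of ATF4 overexpression (SD, n = 4 each), with ranges of 209 to 311 and 477 to 860 CPM that did not overlap.

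Ighd, the IgD heavy chain that mature naïve B cells splice from the same transcript as Ighm, rose from 21.9 ± 2.42 to 46.4 ± 14.6 CPM, by 1.08 ± 0.20 on the log2 scale (SE, adjusted p = 0.0057). Igkc, the kappa light chain constant region (chromosome 6, 70726435 to 70726966, plus strand), was at 26.5, 30.1, 4.47 and 5.78 CPM in WT and at 125, 209, 42.5 and 61.2 CPM in ATF4 overexpression. Both groups were higher in set 1, and the groups did not overlap. The log2 fold change of 2.71 ± 0.79 fell short of the threshold (adjusted p = 0.061) and passed with the replicate number as a block (2.90, adjusted p = 0.0013). Igkc shares its strand with the non-coding gene Gm30211, which had 0.0921 CPM in WT and in ATF4 overexpression 0.846 CPM.

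**Figure D2:**
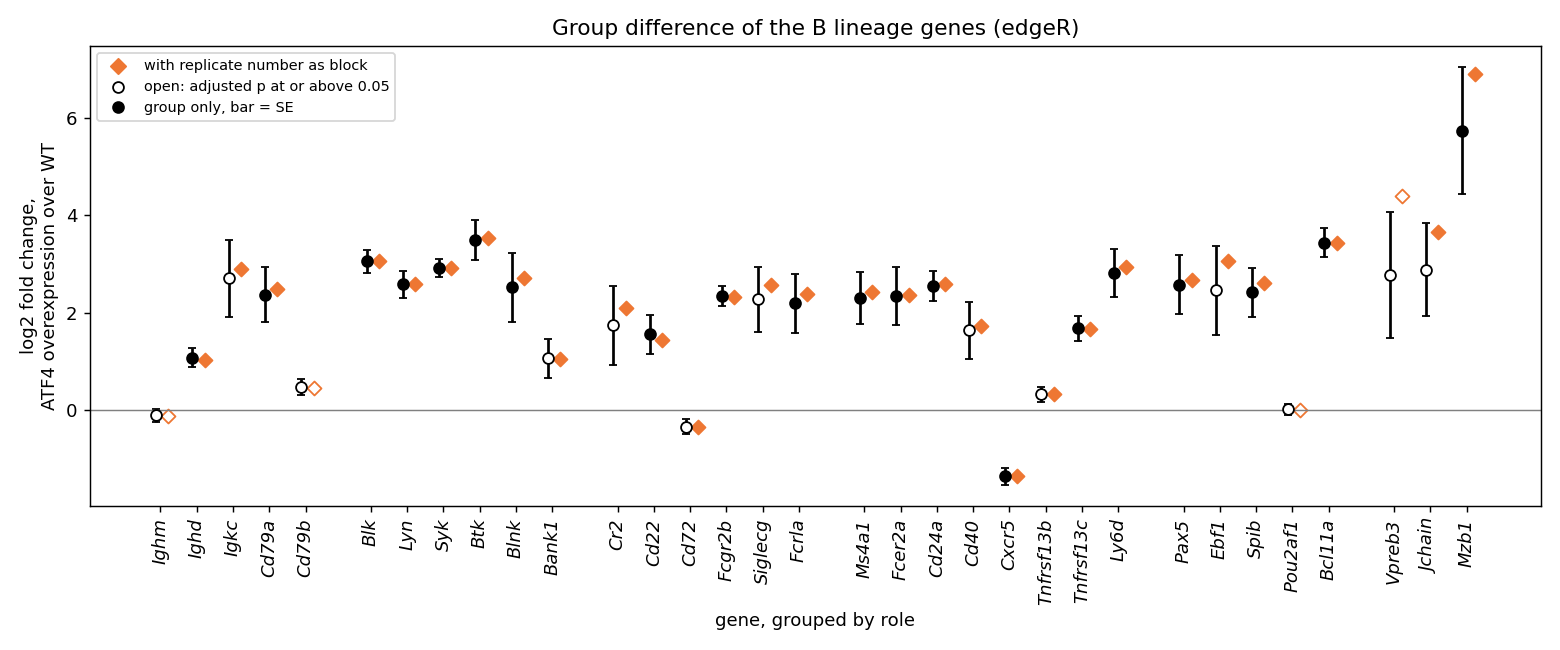
Log2 fold change of ATF4 overexpression over WT for each gene, by role; circles with bars (SE) are the fit on group alone, diamonds the fit with the replicate number as a block, and open symbols did not pass an adjusted p of 0.05. Genes with wide bars under the first fit, such as Igkc, Ebf1 and Jchain, passed with the block, and Ighm, Cd79b, Pou2af1 and Vpreb3 passed in neither.

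Kinases and adaptors below the receptor rose in 5 of 6 genes, with a median log2 fold change of 2.75. For this count and those of the role groups after it, the share of all tested genes was 9.16% higher and 4.89% lower. Syk, the kinase that docks on the phosphorylated ITAM, was at 4.25, 5.70, 5.71 and 7.38 CPM in WT and at 54.2, 40.6, 36.6 and 42.0 CPM in ATF4 overexpression. No library came near the other group, with a log2 fold change of 2.91 ± 0.18 (adjusted p = 9.1e-06). Blk, a Src family kinase named for B cells, rose from 2.03 ± 0.50 to 16.9 ± 3.91 CPM (3.06 ± 0.24, adjusted p = 4.0e-05).

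Lyn, the Src family kinase shared with myeloid cells, was at 2.94, 2.54, 3.59 and 5.28 CPM in WT and at 19.2, 13.9, 26.7 and 26.3 CPM in ATF4 overexpression. Btk, the kinase that activates phospholipase C gamma, was at 0.51, 1.15, 1.53 and 1.78 CPM in WT and at 10.8, 8.60, 18.4 and 18.6 CPM in ATF4 overexpression. In both genes set 2 was the higher set in each group, the opposite of Cd79a. Their log2 fold changes were 2.58 ± 0.28 for Lyn (adjusted p = 3.5e-04) and 3.50 ± 0.41 for Btk (adjusted p = 5.2e-04).

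Blnk, the adaptor that brings BTK to its substrate, rose from 0.85 ± 0.66 to 4.89 ± 3.32 CPM (2.52 ± 0.71, adjusted p = 0.043). Bank1, a scaffold protein that ties LYN to calcium release, was at 5.84, 5.54, 2.23 and 2.99 CPM in WT and at 14.3, 9.79, 5.24 and 5.32 CPM in ATF4 overexpression, so set 2 of the latter lay within the range of WT. Its log2 fold change of 1.06 ± 0.41 did not pass (adjusted p = 0.12) and passed with the replicate block (1.04, adjusted p = 0.0013).

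Co-receptors and inhibitory receptors rose in 3 of 6 genes, with a median of 1.97. Cr2, the complement receptor that lowers the threshold of the receptor, was at 6.33, 6.11, 0.82 and 0.75 CPM in WT and at 20.0, 16.3, 5.12 and 5.33 CPM in ATF4 overexpression. The groups overlapped because WT set 1 lay above ATF4 overexpression set 2, while within each set they were apart. Over all libraries this gave 1.74 ± 0.81 on the log2 scale (adjusted p = 0.22), or 2.11 with the replicate block (adjusted p = 7.2e-04). Cd22 and Siglecg, Siglec receptors that restrain the B cell receptor, went from 8.79 ± 2.87 to 25.8 ± 14.7 CPM (1.56 ± 0.39, adjusted p = 0.030) and from 2.87 ± 2.34 to 13.8 ± 7.31 CPM (2.27 ± 0.66, adjusted p = 0.054). Siglecg passed with the block (2.57, adjusted p = 5.8e-04).

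Fcgr2b, the inhibitory Fc receptor of B cells and myeloid cells, rose from 2.13 ± 0.23 to 10.8 ± 2.51 CPM (2.35 ± 0.20, adjusted p = 8.2e-05). Fcrla, an intracellular Fc receptor-like protein of B cells, rose from 1.05 ± 0.76 to 4.80 ± 2.53 CPM (2.19 ± 0.60, adjusted p = 0.038). Cd72, a lectin that dampens receptor signalling, went the other way. It was at 73.2, 84.1, 58.5 and 63.9 CPM in WT and at 63.0, 65.6, 43.2 and 49.3 CPM in ATF4 overexpression, overlapping between the groups. Its log2 fold change of -0.34 ± 0.15 did not pass (adjusted p = 0.19) and passed with the replicate block (-0.35, adjusted p = 0.0016). Cd72 overlaps Tesk1 on the other strand (44.1 CPM in WT, and 48.5 CPM with ATF4 overexpression), and the strand setting of the counting is not given in the sources used here, so their reads may be mixed.

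Among the 8 other surface receptors 5 rose and 1 fell, with a median of 1.99. Ms4a1, which encodes CD20, was at 6.63, 6.37, 1.59 and 2.22 CPM in WT and at 34.4, 23.2, 13.1 and 12.1 CPM in ATF4 overexpression. The groups did not overlap and set 1 was higher in each, as for Cd79a. The log2 fold change was 2.30 ± 0.54 (adjusted p = 0.022).

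Fcer2a, the low-affinity IgE receptor CD23 of follicular B cells, rose from 2.60 ± 1.64 to 13.2 ± 9.08 CPM (2.35 ± 0.60, adjusted p = 0.031). Ly6d, a surface protein that marks commitment to the B lineage, rose from 1.79 ± 1.11 to 12.5 ± 4.92 CPM (2.81 ± 0.49, adjusted p = 0.0046). Cd24a, a surface glycoprotein that immature B cells share with erythroid cells, rose from 2.86 ± 1.15 to 16.6 ± 4.04 CPM (2.54 ± 0.31, adjusted p = 5.9e-04). These genes shared the order of Cd79a, with set 1 above set 2 in both groups.

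The receptors for BAFF, the survival factor of mature B cells, differed from each other. Tnfrsf13c, the BAFF receptor itself, rose from 2.33 ± 0.54 to 7.49 ± 1.99 CPM (1.68 ± 0.25, adjusted p = 0.0020). Tnfrsf13b, which encodes TACI, was at 17.6, 20.7, 24.1 and 26.0 CPM in WT and at 22.8, 24.9, 31.7 and 31.2 CPM in ATF4 overexpression, with overlap between the groups and set 2 higher in both. Its log2 fold change of 0.32 ± 0.15 did not pass (adjusted p = 0.21) and passed with the replicate block (0.32, adjusted p = 0.0083). Cd40, the receptor through which helper T cells license B cells, was at 0.44 ± 0.27 and 1.37 ± 0.78 CPM (1.64 ± 0.59, adjusted p = 0.10; with the block 1.72, adjusted p = 0.026).

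Cxcr5, the chemokine receptor that guides cells into B cell follicles (chromosome 9, 44511787 to 44561877, minus strand), was the 1 gene that fell. It was at 14.3, 15.2, 18.2 and 21.6 CPM in WT and at 5.20, 7.31, 7.23 and 7.22 CPM in ATF4 overexpression. Every ATF4 overexpression library lay well below every WT library, with a log2 fold change of -1.36 ± 0.17 (adjusted p = 8.2e-04), between -1.44 and -1.24 when any 1 library was left out. Cxcr5 overlaps Bcl9l on the other strand, which had 400 CPM in WT and, with ATF4 overexpression, 331 CPM, and did not pass (-0.27, adjusted p = 0.51).

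Transcription factors rose in 3 of 5 genes. Pax5, which holds B cell identity, was at 4.50, 5.87, 1.39 and 1.38 CPM in WT and at 33.1, 24.6, 9.50 and 11.0 CPM in ATF4 overexpression. Ebf1, which opens the B lineage program, was at 1.43, 1.45, 0.09 and 0.13 CPM in WT and at 7.51, 5.46, 1.88 and 2.18 CPM in ATF4 overexpression. Both separated the groups, and both were several times higher in set 1 than in set 2 of the same group. The change of Pax5 passed (2.58 ± 0.61, adjusted p = 0.023), and that of Ebf1 passed only with the set or the replicate number in the model or within a set (2.46 ± 0.92, adjusted p = 0.12; with the replicate block 3.06, adjusted p = 0.0016).

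Spib, an ETS factor of B cells and plasmacytoid dendritic cells, rose from 2.31 ± 1.66 to 12.4 ± 5.10 CPM (2.42 ± 0.50, adjusted p = 0.011). Bcl11a, a zinc finger repressor of lymphoid progenitors, was at 3.10, 3.08, 1.56 and 2.02 CPM in WT and at 20.8, 18.1, 33.3 and 33.3 CPM in ATF4 overexpression (3.44 ± 0.30, adjusted p = 8.2e-05). Its order over the sets turned between the groups: set 1 was higher in WT and set 2 in ATF4 overexpression. The interaction of group and set was 1.56 on the log2 scale (adjusted p = 0.0075), with a log2 fold change of 2.69 within set 1 and 4.22 within set 2. Bcl11a was the only 1 of the 33 genes whose interaction passed, where 0.998% of all tested genes did.

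Pou2af1, the coactivator that joins OCT factors on octamer sites of immunoglobulin promoters (chromosome 9, 51213708 to 51240080, plus strand), was at 24.9, 23.3, 23.8 and 22.8 CPM in WT and at 29.0, 23.7, 20.4 and 22.7 CPM in ATF4 overexpression. The groups overlapped, and the change did not pass, with a log2 fold change of 0.02 ± 0.11 (adjusted p = 0.95).

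Of the 3 genes of immunoglobulin assembly and secretion 1 rose. Mzb1, a chaperone of the endoplasmic reticulum in marginal zone B cells and plasma cells, had 17 counts in WT replicate 2 and 0 in the other WT libraries, and was at 3.62, 2.88, 1.40 and 1.17 CPM in ATF4 overexpression (5.74 ± 1.31, adjusted p = 0.017). The size of this change rests on those 17 counts: without WT replicate 2 the fitted value was 11.02, which with 0 counts in WT depends on the prior count of the fit. It overlaps the annotated gene SPATA24 on the same strand, so its reads may be shared. Jchain, the joining chain of polymeric IgM and IgA, was at 4.26, 1.71, 0.32 and 0.15 CPM in WT and at 17.7, 15.7, 7.58 and 6.28 CPM in ATF4 overexpression. Jchain did not pass (2.89 ± 0.95, adjusted p = 0.084) and passed with the replicate block (3.66, adjusted p = 0.015). Vpreb3, a protein of immunoglobulin folding in B cells, was at or below 0.41 CPM in WT and between 0.61 and 1.34 CPM in ATF4 overexpression (2.78 ± 1.30, adjusted p = 0.21). It passed without WT replicate 2, which had 41 counts where the other WT libraries had at most 7 (5.24, adjusted p = 0.031), and with limma-voom (4.81, adjusted p = 0.041).

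Of the 19 genes that rose, 12 were called in each of the 8 fits that left out 1 library, and 7 were not. Cd79a lost its call when WT replicate 3, WT replicate 4 or either set 1 library of ATF4 overexpression was dropped (adjusted p between 0.051 and 0.061), and Fcrla with the same libraries (between 0.066 and 0.093). Cd22 lost its call when WT replicate 1, 3 or 4 was dropped, or replicate 2 of ATF4 overexpression (between 0.067 and 0.088). For Fcer2a these libraries and ATF4 overexpression replicate 1 ended it (between 0.059 and 0.085). For Ms4a1 it ended on dropping WT replicate 4 (0.057) or replicate 2 of ATF4 overexpression (0.051), and for Pax5 on dropping either of these or WT replicate 3 (between 0.052 and 0.060). Blnk held only without ATF4 overexpression replicate 4 (0.049), and elsewhere its adjusted p lay between 0.053 and 0.11. Their log2 fold changes stayed at 1.12 or above in all 8 fits. In the fit without the 4 libraries short of low counts, Blk, Lyn, Syk, Btk, Fcgr2b, Cd24a and Bcl11a rose and Cxcr5 fell, while Cd79a (1.51, adjusted p = 0.22), Ms4a1 (1.66, adjusted p = 0.17) and Pax5 (adjusted p = 0.22) did not pass.

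Set 1 had the higher mean in 28 of 33 genes in ATF4 overexpression, against 43.4% of all tested genes, and in 26 of 33 in WT, against 48.4%. What set the library sets apart is not given in the sources used here. ATF4 overexpression replicate 1 was the highest of all 8 libraries in 25 genes. In 29 genes the mean of ATF4 overexpression was above that of WT within both sets. The share of all tested genes was computed for neither of these counts, so they are not set against a background.

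Levels can be compared between genes per kilobase of annotated exon. On that scale Ighm led in WT at 331 CPM per kb, followed by Igkc at 31.4, Cd72 at 20.4, Cd79b at 14.2, Ighd at 11.6, Pou2af1 at 9.30, Tnfrsf13b at 7.80 and Cxcr5 at 5.20, and Cd79a came ninth at 4.47 CPM per kb. Of the 8 genes above Cd79a in WT, Ighd rose and Cxcr5 fell, and 6 did not pass. In ATF4 overexpression the order was Ighm at 309, Igkc at 206, Ighd at 24.4, Cd79a at 23.1, Cd79b at 19.8, Ly6d at 16.9 and Cd72 at 16.1 CPM per kb, and Cxcr5 was at 2.02. In ATF4 overexpression the libraries of Ighd, Cd79a, Cd79b, Ly6d and Cd72 overlapped on this scale, and so did those of Ighm and Igkc.

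The proportions between the genes were examined by dividing the CPM of each of the other 32 genes by that of Cd79a in the same library. This is a description, and the gene groups named in it were formed after the values were seen. In 7 genes, against 0.0601% of all tested genes, the ratio varied by under 2-fold over all 8 libraries: Ms4a1 (0.54 to 0.73), Pax5 (0.43 to 0.63), Fcer2a (0.31 to 0.52), Spib (0.27 to 0.48), Fcrla (0.10 to 0.19), Ly6d (0.24 to 0.44) and Cd24a (0.37 to 0.69). Cd79a itself ranged from 2.55 to 52.5 CPM. Within these limits the ratio of Cd24a was higher in set 2 of both groups (0.66 and 0.68 in WT, 0.69 and 0.66 in ATF4 overexpression).

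In 12 genes the ratio varied by over 5-fold, and the share of all tested genes was not computed for this count. Because Cd79a ran from 2.55 to 52.5 CPM, a gene of steady level also passes 5-fold, with its lowest ratio where Cd79a is highest. For Ighm the ratio was 72.5, 62.6, 219 and 180 in WT and 12.3, 16.4, 25.0 and 25.2 in ATF4 overexpression, lowest where Cd79a was highest. Cd72 went from between 7.54 and 22.9 in WT to between 1.20 and 2.45, Pou2af1 from between 2.09 and 9.33 to between 0.55 and 1.13, and Cxcr5 from between 1.36 and 7.13 to between 0.10 and 0.38. Cd79a itself separated the groups, so a gene that did not differ between them also has a lower ratio in ATF4 overexpression. In 9 of 32 genes, Cd79b, Tnfrsf13b, Ighd, Cd22 and Bank1 among them, the ratio was lower in every ATF4 overexpression library than in every WT library, against 70.9% of all tested genes. In 1, Mzb1, it was higher, against 0.487%. The ratio of Lyn ran from 0.23 to 0.32 in WT set 1 and from 0.32 to 0.37 in ATF4 overexpression set 1, and was at 1.41 and 1.64 in WT set 2 and at 1.41 and 1.31 in ATF4 overexpression set 2. Lyn thus followed the set, not the group, in its proportion to Cd79a.

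**Figure D3:**
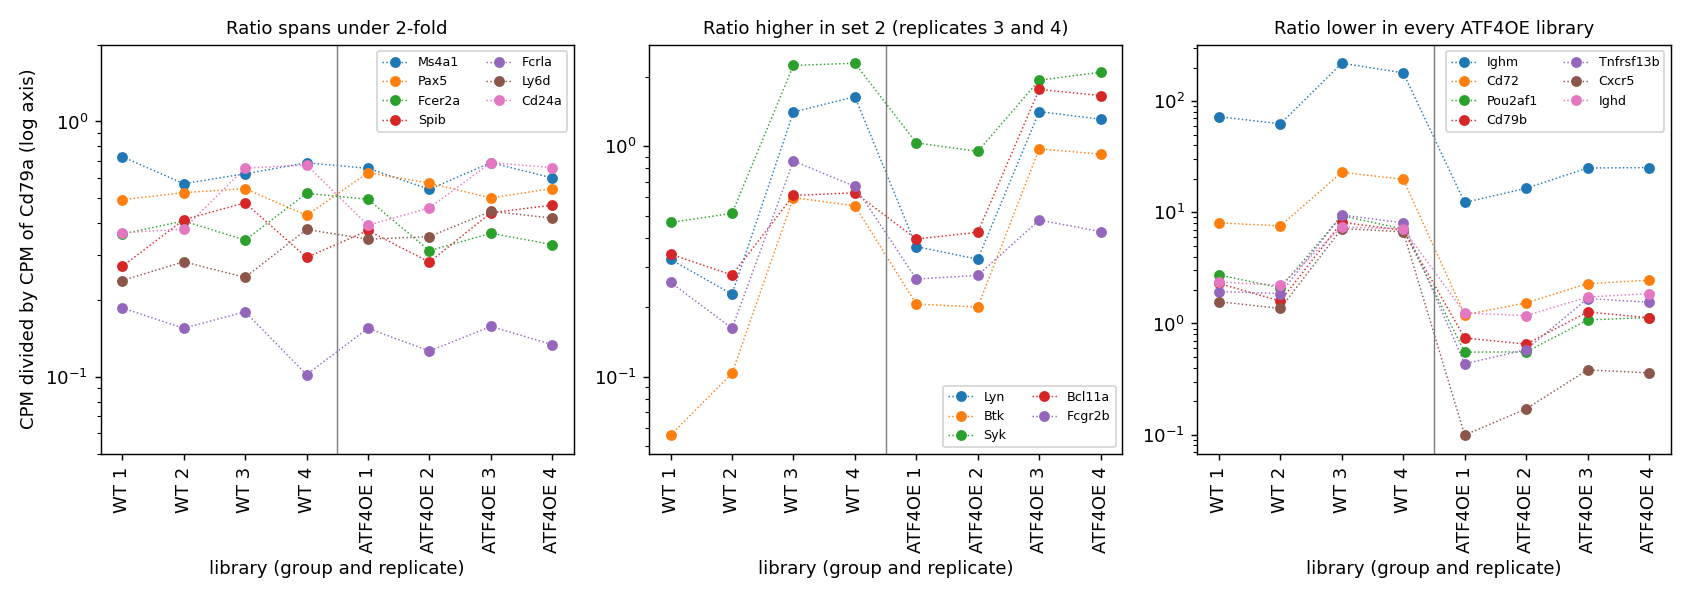
CPM of a gene divided by the CPM of Cd79a in each library, on log axes that differ between the panels; dotted lines join values of 1 gene and carry no order. The 7 genes of the left panel stay within 2-fold over all libraries, Lyn and Btk in the middle panel are higher in replicates 3 and 4 of each group, and Ighm, Cd72 and Cxcr5 in the right panel are lower in every ATF4 overexpression library.

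Markers of other cells moved beside these genes. For the counts that follow, the share of all tested genes was 9.16% higher and 4.89% lower. The 14 monocyte and macrophage genes summed to between 169 and 335 CPM in ATF4 overexpression, against 29.2 to 87.9 CPM in WT (8 of 14 higher). Of their defining genes, Csf1r rose from 3.03 to 20.2 CPM and Adgre1 from 0.71 to 3.79 CPM. The 12 erythroid genes summed to 94.4 to 333 CPM against 14.0 to 18.1 (9 of 12 higher), and the 8 neutrophil genes to 31.4 to 114 CPM against 0.79 to 6.24 (6 of 7 tested higher). NK cell genes summed to 244 to 505 CPM against 113 to 233 (4 of 10 higher). Platelet genes summed to 10.6 to 20.2 CPM against 3.78 to 4.99 (6 of 9 tested higher), dendritic cell genes to 18.8 to 35.5 CPM against 4.52 to 13.8 (1 of 7 higher), and CD4 T cell genes to 44.9 to 78.6 CPM against 19.1 to 31.2 (4 of 6 higher). No gene of these 7 lists was called lower. In ATF4 overexpression the monocyte, erythroid, neutrophil and platelet sums were higher in set 2, as Lyn, Btk and Bcl11a were, and the NK cell, dendritic cell and CD4 T cell sums were higher in set 1, as Cd79a was. In WT the NK cell and dendritic cell sums were higher in set 2, where Cd79a was lower. The list of plasmacytoid dendritic cells, which share Spib, Bcl11a and Tcf4 with B cells, summed to 402 to 486 CPM against 349 to 364, with 2 of 8 tested genes higher and 1 lower. Cox6a2 alone went from 0.089 to 79.3 CPM, and without it the sums, 333 to 388 CPM against 349 to 364, overlapped. Defining genes of the list, Siglech (0.17 and 0.44 CPM) and Klk1 (0.02 and 0.08 CPM), were near 0 in both groups. Besides Cox6a2 the gene called higher was Tcf4 (4.35 and 13.95 CPM), and the 1 called lower was Pacsin1 (86.9 and 66.4 CPM). The rest of the list did not pass and was not near 0. The part of these cells in the level of the 33 genes was not tested.

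**Figure D4:**
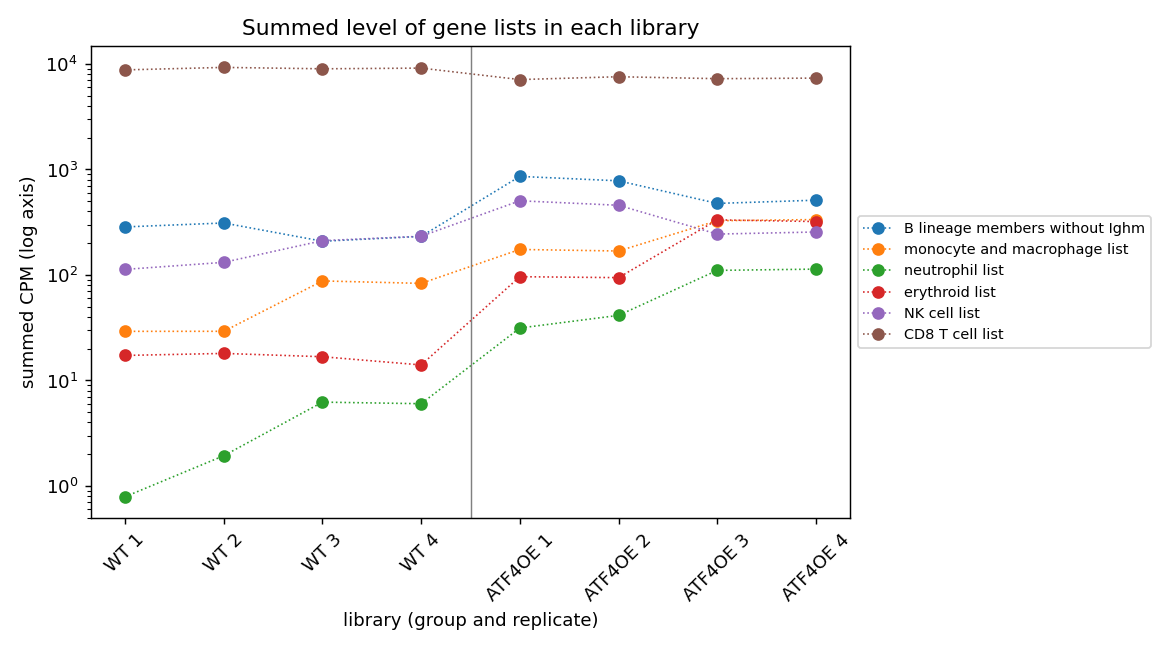
Summed CPM of gene lists in each library on a log axis; dotted lines join values of 1 list and carry no order. The B lineage genes without Ighm lie between 209 and 311 CPM in WT and between 477 and 860 CPM in ATF4 overexpression, and the erythroid list is highest in ATF4 overexpression replicates 3 and 4.

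Further genes of mature B cells, 30 that are not among the 33, were higher in 17 and lower in 3, with a median of 1.68. Of all tested genes 9.16% were higher and 4.89% lower. Swap70, a signalling protein of switching B cells, rose from 5.66 ± 0.92 to 24.3 ± 1.58 CPM, Plcg2, the phospholipase that BTK activates, from 6.53 ± 1.36 to 27.1 ± 0.99 CPM, Irf8, a transcription factor of B cells and myeloid cells, from 11.2 ± 1.58 to 39.7 ± 8.07 CPM, and Mef2c, a transcription factor downstream of the receptor, from 2.18 ± 0.61 to 16.3 ± 3.79 CPM. The 3 that were lower, Cd86, Stap1 and Cd55, went from 18.6 to 8.48, from 48.5 to 39.5 and from 133 to 72.1 CPM (all 3 are named after their values were seen).

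The share of all tested genes, 9.16% higher and 4.89% lower, stands beside each list that follows here. Genes of plasma cells were higher in 7 of 13 tested and lower in 1, with a median of 1.64. Sdc1, the plasma cell proteoglycan CD138, rose from 0.31 ± 0.16 to 4.51 ± 1.26 CPM. Igha, the IgA heavy chain, rose from 0.04 ± 0.04 to 7.16 ± 4.37 CPM. Edem1 was the 1 called lower (from 283 to 217 CPM, named after its values were seen), and Tnfrsf17 had no count in any library. Sums of the plasma cell list overlapped between the groups, at 319 to 393 CPM for WT libraries against 324 to 421 CPM with ATF4 overexpression. Genes of B cell progenitors were higher in 3 of 6 tested (Erg, Sox4 and Cd93, all used by other progenitors as well), while Vpreb1 did not pass (0.37 CPM and 0.31 CPM) and Rag1, Rag2 and Igll1 were too low to test. Of 6 tested germinal centre genes 1 was higher, Bcl6 (0.43 ± 0.11, adjusted p = 0.025), which T cells express as well.

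Of the 33 genes, 21 had a promoter in the RefSeq table of GRCm38.p6 (250 bases before to 50 after a start), 26 windows in all. They were searched on both strands for the octamer ATGCAAAT, to which POU2AF1 is recruited, for the EBF site (TCCC, any 2 bases, GGGA), and for the ATF4 and C/EBP composite site TGATGNAA. The octamer was found in Blnk and Vpreb3, against 1.74% of all 32851 promoters. The EBF site was found in Cd22, against 0.904% of all promoters, and the composite site in none of the 26 windows, against 3.97% of all promoters. These promoters are shown because they are the only ones of the 21 genes with a match, with the matched letters in capitals. They run 5′ to 3′ on the minus strand for Blnk (chr19:40994172-40994471) and Cd22 (chr7:30878979-30879278) and on the plus strand for Vpreb3 (chr10:75948050-75948349). The octamers of Blnk and Vpreb3 lie on the strand opposite to the gene, so they read ATTTGCAT.
Blnk: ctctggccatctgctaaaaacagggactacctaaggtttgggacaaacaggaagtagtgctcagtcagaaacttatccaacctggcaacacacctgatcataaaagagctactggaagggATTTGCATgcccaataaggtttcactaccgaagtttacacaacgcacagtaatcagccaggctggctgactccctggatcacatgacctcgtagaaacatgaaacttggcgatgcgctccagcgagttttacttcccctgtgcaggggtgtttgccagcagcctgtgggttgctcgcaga
Vpreb3: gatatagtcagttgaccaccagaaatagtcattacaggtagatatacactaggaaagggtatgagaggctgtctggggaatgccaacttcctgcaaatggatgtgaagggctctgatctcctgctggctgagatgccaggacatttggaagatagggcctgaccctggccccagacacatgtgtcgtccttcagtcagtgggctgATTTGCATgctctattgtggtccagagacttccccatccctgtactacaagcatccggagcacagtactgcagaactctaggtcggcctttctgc
Cd22: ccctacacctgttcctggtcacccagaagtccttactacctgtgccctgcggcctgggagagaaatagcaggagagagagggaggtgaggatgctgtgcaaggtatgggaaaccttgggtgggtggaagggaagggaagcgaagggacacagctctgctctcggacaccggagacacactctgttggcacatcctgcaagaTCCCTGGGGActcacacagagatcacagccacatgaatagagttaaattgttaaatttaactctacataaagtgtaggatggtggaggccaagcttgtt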

How the data were processed

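Estimated counts by gene symbol were deposited by the authors in 1 table. The submitters' processing notes name Salmon and GRCm38.p6. The sources used here do not give the annotation release, the strand setting or the trimming. All 8 columns were mapped to samples by library name. Estimated counts were rounded to whole numbers and tested with edgeR 4.0.16 in R 4.3.3 (quasi-likelihood test, group as the only term, TMM, filterByExpr, robust dispersions), with a gene called at an adjusted p below 0.05 over 16630 genes. Levels are CPM on the scaled library sizes. Standard errors were derived from the F statistic. Alternatives used DESeq2 1.42.0, limma 3.58.1 (voom), other scalings and filters, and fewer libraries. Replicate numbers come from the sample titles. Deviations from the group means correlated between same-numbered libraries (Pearson's r over genes 0.42, 0.46, 0.52 and 0.48), nearly as much between other libraries of the same set (0.27 to 0.40), and negatively across sets (-0.51 to -0.31). Each library correlated best with its own number, so the number was taken as a pairing and used as a block in an alternative. The sample titles state no pairing, and this block also takes up the difference between the sets. With the library set as the block instead, 27 of the 33 genes rose and 2 fell, against 2327 higher and 1927 lower among all tested genes. Coordinates and exon lengths come from GENCODE M21, which held all 33 symbols.

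Text names all 33 genes, up to 4 called genes with the smallest p from each further list, and Atf4 and Cd8a among the genes used as checks; genes listed as absent or as cell type definers are further names. The members and gene lists were chosen with earlier results of these data known. The test was run on simulated data for this comparison (16000 genes). It called 52.5% of 99 genes given a log2 change of 1, 77.1% of 96 given 2, and 8 of 15805 given none. Some results are not reported here.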

Additional observations from a re-analysis of the deposited data

Results flagged for a closer look

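Among the 66 groups of 4 libraries examined (33 genes in each of 2 conditions), 4 held a library far from the others by Dixon's criterion at 1 in 20. The genes share the same libraries and some WT values were 0, so the count was not compared with chance. Cxcr5 was lowest in ATF4 overexpression replicate 1, at 5.20 CPM, with the other libraries of that group between 7.22 and 7.31 CPM. Vpreb3 was highest in WT replicate 2, at 0.41 CPM, and in ATF4 overexpression replicate 1, at 1.34 CPM. Mzb1 was highest in WT replicate 2, at 0.17 CPM, where the other WT libraries had 0 counts.

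The group difference of Bcl11a was larger in library set 2 than in set 1 by 1.56 on the log2 scale (edgeR interaction, adjusted p = 0.0075).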

How the results depend on the processing

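The number of B lineage genes that rose, 19 with all libraries, was 12 with no low-count filter, 7 without the 4 libraries short of low counts, and between 12 and 19 when 1 library was left out (12 without WT replicate 4 or ATF4 overexpression replicate 2). With the replicate block it was 27, with DESeq2 25. The number that fell, 1 with all libraries, was 2 with the replicate block, with the library set as a block and within set 2, and the second gene was Cd72. Over all genes the replicate block moved the calls from 1524 higher and 813 lower to 2279 and 2237, DESeq2 gave 2334 and 1093, and leaving out the 4 libraries gave 1250 and 333. The fit with no low-count filter gave 1405 higher and 681 lower. Leaving out 1 library gave 1089 to 1431 higher and 518 to 677 lower. Directions turned in 2 genes near 0. Ighm was at 0.023 within set 1. Pou2af1 was at -0.11 within set 2, at -0.13 without the 4 libraries, and between -0.090 and 0.091 when 1 library was left out. The replicate block ended none of the 19 calls of a rise. The cause of these shifts was not tested.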

Other observations

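Antibody variable segments and heavy chain classes were also counted. Of 183 heavy chain variable segments (Ighv) listed, 93 had a count, and 6 of the 27 tested were higher, and of 160 kappa segments (Igkv) 87 had a count and 6 of 38 tested were higher. None of either family was lower. Over all tested genes 9.16% were higher and 4.89% lower. The heavy chain segments summed to 0.89 to 5.81 CPM in WT and 13.9 to 55.5 CPM in ATF4 overexpression. Kappa segments summed to 1.97 to 12.4 CPM and 18.7 to 69.4 CPM. In both families the libraries of set 1 were the higher ones, as for Igkc. Of the 3 lambda segments (Iglv), all tested, 2 were higher and 0 lower.

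Single segments and classes stood out in single libraries. Ighv6-3 was at 18.4 CPM in ATF4 overexpression replicate 2 and at 0.63, 1.02 and 0.85 CPM in replicates 1, 3 and 4. The IgG3 heavy chain Ighg3 was at 38.2 CPM in the same library and at 0.52, 1.57 and 1.36 CPM in replicates 1, 3 and 4, and Igkv4-55 was at 11.0 CPM there and at 0.45 CPM or less in the others of that group. The IgG2b chain Ighg2b was at 26.9 and 16.2 CPM in ATF4 overexpression replicates 1 and 2 and at 0.47 and 0.79 CPM in replicates 3 and 4. Igha was at 1.17 CPM in replicate 1 and at 11.6, 8.44 and 7.45 CPM in replicates 2 to 4. Ighg3 and Ighg2b were looked at by library after their means were seen, and neither passed the test (adjusted p = 0.13 and 0.052).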
